A study of Rattus norvegicus with 85 samples.

Results

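Editing levels were compared between the prefrontal cortex (PFC) and the amygdala (AMY) of newborn (P0) F1 control Sprague-Dawley rats, that is, untreated offspring of dams that had not been stressed. The rule took every library labelled PFC or AMY, P0, F1 and Control, which gave 5 PFC and 5 AMY samples, 10 of the 85 samples of the series. The PFC samples came from 1 female and 4 males and the AMY samples from 2 females and 3 males, all taken as tissue punches of frozen brain. The labels give each sample its own number, with PFC samples 43, 66, 68, 69 and 71 and AMY samples 40, 46, 56, 59 and 61, and values are listed below in this order. No PFC sample shares its number with an AMY sample, and nothing in the labels tells whether 2 samples share an animal or a litter, so p-values measure the spread between these samples only. Each library was made by microfluidic multiplex PCR and sequencing (mmPCR-seq), in which selected transcripts are amplified from cDNA and sequenced deeply. An editing level is the share of reads at a site with G where the genome has A. Punches hold neurons and glia together, and a file of editing levels holds no expression markers, so the labelled regions could not be checked against marker genes.

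Adenosine-to-inosine RNA editing is carried out by the ADAR enzymes on double-stranded RNA, mostly hairpins in which an intron or an inverted repeat pairs with an exon or a 3′ UTR. Inosine is read as guanosine by the ribosome and by reverse transcriptase, so an edited codon can encode another amino acid. In the brain the best known recoded transcripts encode glutamate receptor subunits, the GABA-A receptor subunit Gabra3, the serotonin receptor Htr2c and ion channels, and editing at many of these sites increases as the brain matures.

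The 146 sites of the study lie in 67 genes and, for 7 of them, between genes. The study's primer list covers all but 1 of them with 95 primer pairs. Of these amplicons, 29 hold more than 1 site and 79 sites lie in such shared amplicons, so neighbouring sites are not independent measurements. By the study's site list, 41 sites are nonsynonymous, 16 synonymous, 74 in a 3′ UTR, 6 in a 5′ UTR, 7 intergenic and 2 intronic. The gene-specific parts of the primers are given below for the coding sites on which the comparison turns, because they define which stretch of transcript each value describes. The edited base lies between the 2 primers of a pair and is not part of either. They are written 5′ to 3′ in lower case, with the sequencing tails left out, as the study's primer list gives them.
Gria4 R/G, primer 1: gagtttcaaaacggcaaggt
Gria4 R/G, primer 2: ctggagtccacgatgaatgaa
Gria2 R/G, primer 1: ttttccttacttcccgagtcc
Gria2 R/G, primer 2: catcgccacacctaaaggat
Grik2 Q/R and Met/Val, primer 1: tttgggcatgagctcagaa
Grik2 Q/R and Met/Val, primer 2: tgtcatagccaggtttagtcc
Htr2c A to D, primer 1: cttagtccgcgaattgaacc
Htr2c A to D, primer 2: ggggattatgtctggccttta
Kcna1, primer 1: aattggacacaatgacaggtac
Kcna1, primer 2: tcttcattggcgtcatactgt
Mcrs1, primer 1: gctcatgttccaggacttcat
Mcrs1, primer 2: tggcagctcatgaaacagtat
Blcap Y/C, primer 1: gagtggctgaaccacaga
Blcap Y/C, primer 2: tggagagagagtcgaagaaaac

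Reads were added up over the 146 sites, so a read spanning several sites is counted at each, and the sums ranged from 683558 to 2684327 in the PFC and from 964927 to 2757627 in the AMY. At most 3 sites per library had under 50 reads, and each region had 3 or more samples with 50 reads at all 146 sites. The 3 libraries with the fewest reads were PFC 68, PFC 43 and AMY 61. Every pair of libraries within a region differed by more than read-counting error, with a chi-square of 20.5 to 171 per degree of freedom over the 20 pairs. Reads are PCR copies counted without molecular identifiers, so this check cannot tell technical repeats from separate samples. Each library was kept as a separate sample because the labels number it so. Library numbers carried by the files place PFC 43 and AMY 46 in numbers 1 to 48, AMY 40 in numbers 145 to 192, and the 4 male PFC and 3 male AMY libraries in numbers 193 to 240. Sex and library number therefore move together, and values within the males of numbers 193 to 240 are given beside the main results.

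Averaged over sites, PFC samples were edited less than AMY samples. Over the 138 sites with 50 reads in all 10 samples, the mean level was 7.43, 8.78, 8.01, 8.82 and 9.22% in the PFC and 9.57, 9.78, 10.2, 9.43 and 10.4% in the AMY. The groups did not overlap, as each AMY sample lay above the highest PFC sample. The mean was 8.45% ± 0.721 (SD, n = 5) in the PFC and 9.87% ± 0.410 (SD, n = 5) in the AMY, a difference of -1.42 percentage points (two-sided exact permutation test, p = 0.00794, the smallest value that 5 samples against 5 allow). Within the 4 PFC and 3 AMY males of library numbers 193 to 240 the difference was -1.30 points, and between PFC 43 and AMY 46, the pair in numbers 1 to 48, it was -2.35 points.

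The libraries with the fewest reads lay at the ends of this range. PFC 43 and PFC 68 were lowest, and AMY 61 was highest, and PFC 43 alone held the lowest level of the 10 samples at 43 of the 138 sites. AMY 61 held the highest level at 37 of them. Without these 3 libraries the difference in mean editing was -0.81 points over 140 sites, still without overlap between the 3 PFC and 4 AMY samples left (exact permutation p = 0.0286). The part of depth in the size of the difference was not tested.

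**Figure D1:**
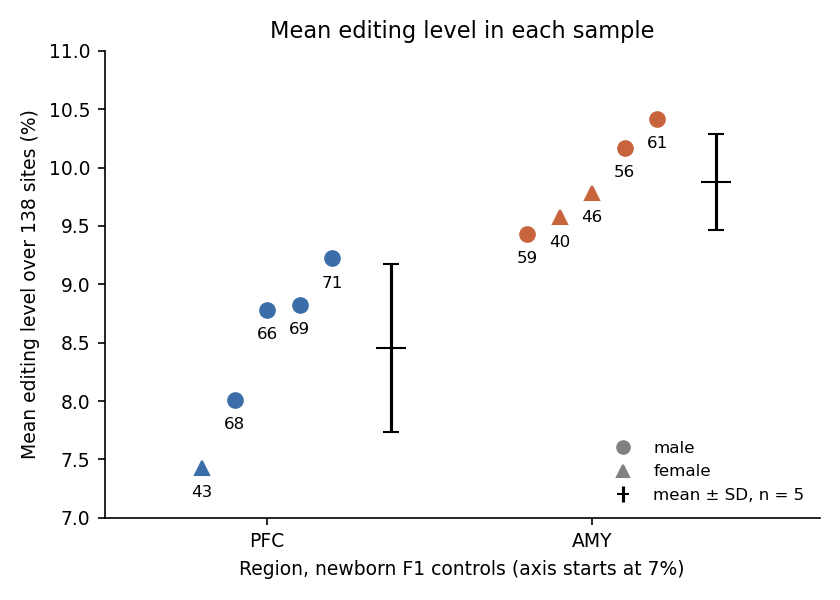
Mean editing level (%) over the 138 sites measured in all 10 samples, one point per sample with its number, circles for males and triangles for females, with mean ± SD (n = 5) beside each region; the vertical axis starts at 7%. The AMY samples lie between 9.43 and 10.4%, all above the PFC samples, which lie between 7.43 and 9.22%.

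Site by site, the mean level was lower in the PFC at 109 of 146 sites, higher at 33 and equal at 4, and the median difference over all sites was -0.19 points. No site passed an FDR of 0.1 when the exact Mann-Whitney p-values were adjusted over all 146 sites (0 of 146, 0% called, lowest adjusted p = 0.116). At an unadjusted exact p under 0.05 there were 25 sites (17.1% of those tested), 24 lower and 1 higher in the PFC. At 10 sites (6.85%) the 2 regions did not overlap, 9 of them lower in the PFC (6.16%) and 1 higher (0.685%). All 10 have the smallest exact p-value that this design allows, 0.00794.

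Whether single sites passed differed with the scope of the adjustment and with the test. Adjusted separately over the 41 nonsynonymous sites and over the other 105 sites, 7 sites passed FDR 0.1 (4.79% called), all of them nonsynonymous. They were the R/G sites of Gria4 and Gria2, the Q/R and Met/Val sites of Grik2, Kcna1 and Mcrs1, all lower in the PFC, and Blcap Y/C, higher in the PFC. With limma on the logit of the level, adjusted over all sites, 13 sites passed, 12 lower and 1 higher in the PFC, and R's default Mann-Whitney test and an exact permutation test of means called 0. The 13 hold these 7 sites, and among the rest are Gria4 L, Pum2, Mmgt1 and Ankrd28. At Gria4 L all 5 PFC samples stood at 0.1% and the AMY samples at 0 to 0.3%. Levels are rounded, and those under 0.1% were raised to 0.1% before the logit, so that call rests on the lowest steps of the scale.

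**Figure D2:**
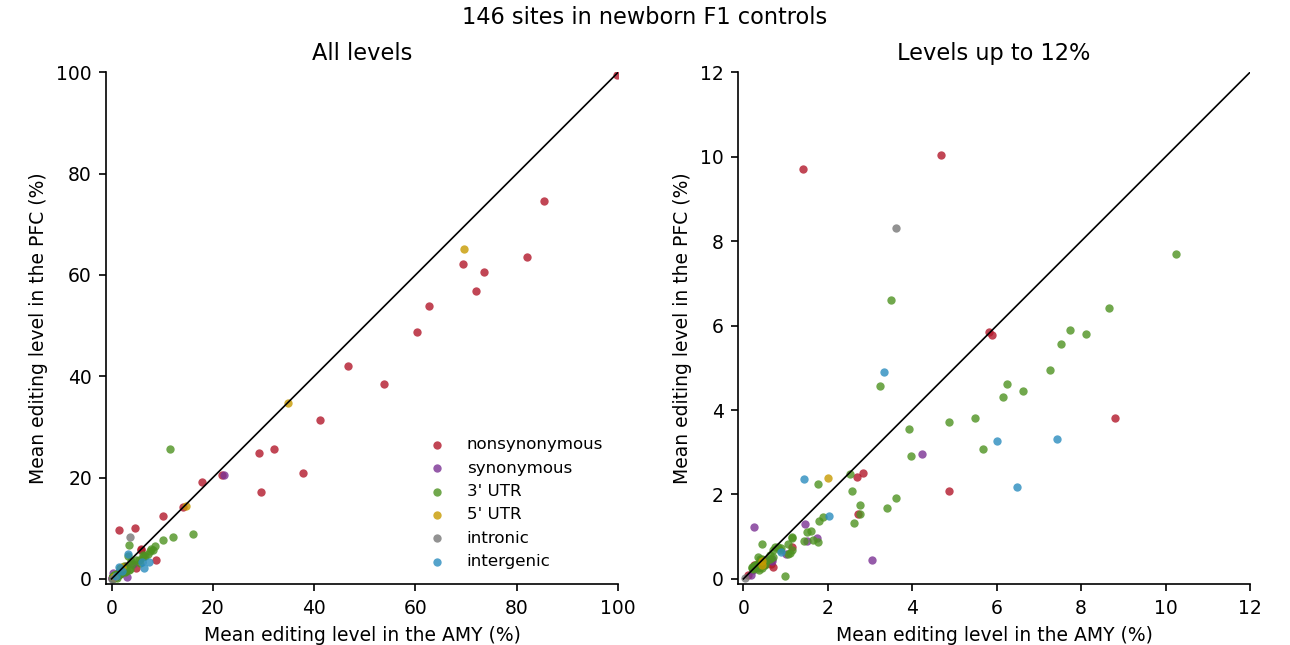
Mean editing level of each of the 146 sites in the AMY (horizontal axis, %) and in the PFC (vertical axis, %), 5 samples each, coloured by genomic class, with the line of equal levels; the right panel enlarges levels up to 12%. Of the 20 sites with a mean of at least 20% in either region, 19 lie below the line, and the point above it is Igf1. These sites were picked by the means that are compared, so the count is no separate support. Mcrs1 (17.1% in the PFC, 29.5% in the AMY) entered by the AMY alone, and Igf1 (25.6 and 11.5%) by the PFC alone.

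Most of the widest differences in means were at receptor and channel sites. Of the 27 coding sites in Gria2, Gria3, Gria4, Grik1, Grik2, Gabra3, Htr2c, Kcna1, Kcnma1 and Cacna1d, 25 had a lower mean in the PFC (92.6%, against 74.7% of all sites), with a median difference of -1.72 points. The 20 nonsynonymous ones had a median difference of -6.71 points and the 7 synonymous ones of -0.42 points. Levels of the nonsynonymous receptor and channel sites were also higher, with median means of 34.9% in the PFC and 43.9% in the AMY. For comparison, the other 21 nonsynonymous sites had a median difference of -0.06 points, 13 of them lower and 7 higher in the PFC.

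The R/G site of the AMPA receptor subunits, which carry most fast excitatory transmission, sets how quickly the channel recovers from desensitization. The R/G site of Gria4 (rn4 chromosome 8, position 994881, minus strand) had levels of 16.8, 24.5, 14.5, 20.2 and 28.1% in the PFC and of 28.3, 38.3, 38.9, 41.0 and 42.3% in the AMY. The groups came close but did not overlap, with PFC 71 at 28.1% beside AMY 40 at 28.3%. The means were 20.8% ± 5.55 and 37.8% ± 5.53 (SD, n = 5 each), a difference of -16.9 points (exact p = 0.00794, adjusted p = 0.116 over all sites and 0.0542 over nonsynonymous sites). Within the males of library numbers 193 to 240 the difference was -18.9 points, without overlap.

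At the R/G site of Gria2 (chromosome 2, position 172272247, minus strand), levels were 28.2, 41.8, 29.2, 43.6 and 49.3% in the PFC and 46.8, 59.0, 56.8, 56.2 and 50.6% in the AMY. PFC 71 lay above AMY 40, and the other PFC samples lay below the AMY samples. The means were 38.4% ± 9.30 and 53.9% ± 5.03 (SD, n = 5 each; exact p = 0.0159, adjusted p = 0.178 over all sites and 0.0930 over nonsynonymous sites), and among the males of numbers 193 to 240 the difference was -13.6 points, without overlap. At the R/G site of Gria3 (chromosome X, position 3477800, minus strand), levels were 50.4, 64.4, 55.0, 65.5 and 67.6% in the PFC and 61.4, 77.3, 77.6, 77.6 and 73.7% in the AMY. Its means of 60.6% ± 7.46 and 73.5% ± 6.97 (SD, n = 5 each) did not pass (exact p = 0.0556, adjusted p = 0.253), and the males of this set differed by -13.2 points, without overlap. At all 3 R/G sites AMY 40 was the lowest AMY sample and PFC 71 the highest PFC sample, and PFC 43 and 68 were the lowest PFC samples.

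The other AMPA receptor sites ranged from under 1% to nearly complete editing. The Q/R site of Gria2, which makes the channel impermeable to calcium, was edited almost completely, at 99.6% ± 0.179 in PFC and 99.7% ± 0.114 in AMY samples (SD, n = 5 each; exact p = 0.135, adjusted p = 0.386). The synonymous Gria2 Q site in the same amplicon stood at 20.6% ± 2.26 and 22.3% ± 3.80 (PFC before AMY). The synonymous leucine sites that share the R/G amplicons were edited at low levels, 0.58% ± 0.130 and 1.00% ± 0.245 at Gria2 L, 0.90% ± 0.291 and 1.50% ± 0.539 at Gria3 L, and 0.10% and 0.18% ± 0.110 at Gria4 L (PFC before AMY, SD, n = 5 each). All 10 sites of the AMPA subunits had a lower mean in the PFC, against 74.7% of all sites, with a median difference of -0.51 points. An unadjusted exact p under 0.05 was found at 4 of the 10, against 17.1% of all sites. The remaining 2 sites, Gria3 K and the synonymous Gria3 site at position 3477161, were under 1% in both regions.

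Kainate receptor subunits are glutamate receptor subunits that also act presynaptically. At the Q/R site of Grik2 (chromosome 20, position 53378633, minus strand), which lowers calcium permeability and conductance, levels were 68.3, 80.0, 66.2, 79.5 and 79.2% in the PFC and 83.7, 85.7, 85.5, 85.8 and 85.8% in the AMY. The AMY samples stood between 85.5 and 85.8%, apart from AMY 40, whereas the PFC samples fell into a lower pair (43 and 68) and 3 near 80%. The means were 74.6% ± 6.79 and 85.3% ± 0.903 (SD, n = 5 each), a difference of -10.7 points (exact p = 0.00794, adjusted p = 0.116 over all sites and 0.0542 over nonsynonymous sites). In the males of numbers 193 to 240 it was -9.47 points, without overlap.

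The Met/Val site of Grik2 lies 4 bases from the Q/R site in the same amplicon. Its levels were 0.8, 1.7, 1.2, 1.9 and 2.1% in the PFC and 3.1, 2.4, 2.7, 2.9 and 2.5% in the AMY, again without overlap, with means of 1.54% ± 0.532 and 2.72% ± 0.286 (SD, n = 5 each; exact p = 0.00794, adjusted p = 0.116). The synonymous Grik2 G site of this amplicon had means of 2.96% ± 0.546 and 4.22% ± 0.589 (exact p = 0.0317, adjusted p = 0.221, n = 5 each). Because the reads at these 3 sites come from 1 PCR product, they describe 1 amplicon measured at several bases.

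Farther upstream in Grik2, the I/V and Y/C sites share another amplicon. The I/V site had means of 53.9% ± 5.53 in the PFC and 62.7% ± 2.63 in the AMY (SD, n = 5 each; exact p = 0.0317, adjusted p = 0.221), and the Y/C site of 62.2% ± 6.28 and 69.3% ± 5.77 (exact p = 0.0952, adjusted p = 0.309). The synonymous Grik2 E site was at 0.44% ± 0.152 and 0.54% ± 0.114. The Q/R site of Grik1 had a wide spread in both regions, 22.9, 34.1, 20.5, 44.2 and 35.6% in the PFC and 22.5, 49.2, 44.5, 47.6 and 41.7% in the AMY. AMY 40 lay among the lowest PFC samples there, and the means of 31.5% ± 9.74 and 41.1% ± 10.8 did not pass (exact p = 0.151, adjusted p = 0.393, n = 5 each). All 7 kainate receptor sites had a lower mean in the PFC, against 74.7% of all sites, with a median difference of -7.10 points.

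The I/M site of Gabra3 (chromosome X, position 158405626, minus strand), a subunit of the inhibitory GABA-A receptor, had levels of 45.2, 49.0, 48.8, 42.7 and 57.9% in the PFC and of 54.8, 61.7, 59.1, 54.0 and 71.8% in the AMY. PFC 71 lay within the AMY range and the other PFC samples below it. The means were 48.7% ± 5.77 and 60.3% ± 7.17 (SD, n = 5 each; exact p = 0.0317, adjusted p = 0.221 over all sites and 0.145 over nonsynonymous sites), and in the males of numbers 193 to 240 the difference was -12.0 points with overlap.

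**Figure D3:**
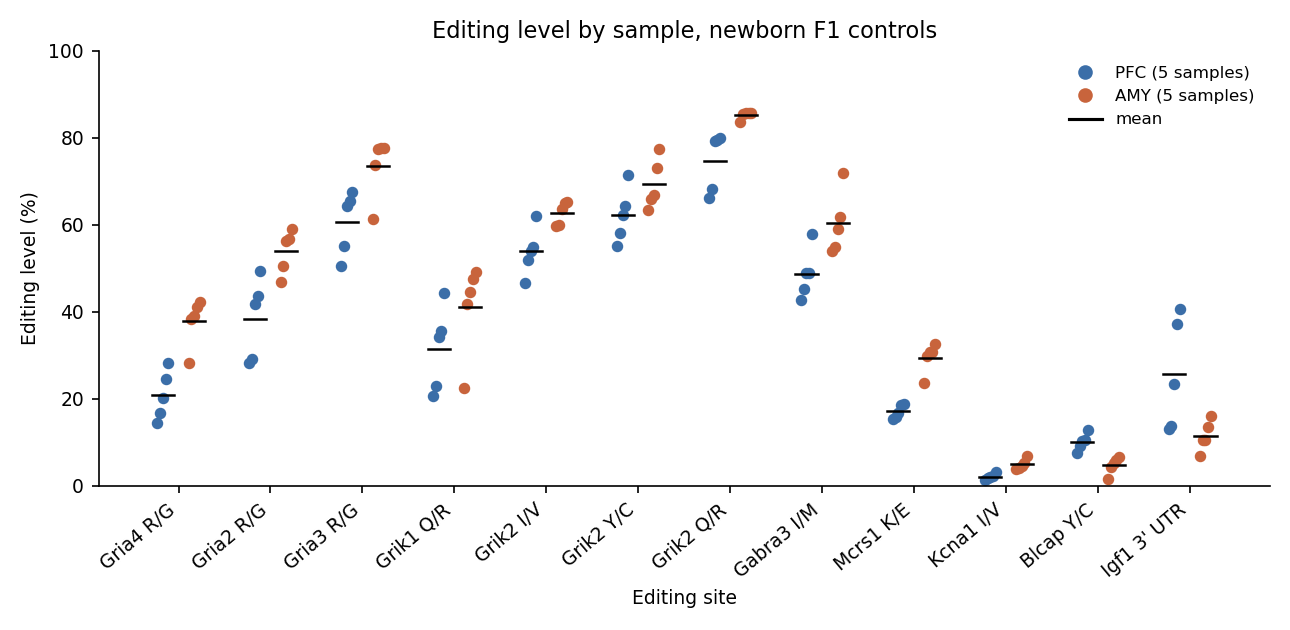
Editing level (%) in each of the 5 PFC and 5 AMY samples at 12 sites, with a black bar at the mean of each region. The regions do not overlap at Gria4 R/G, Grik2 Q/R, Mcrs1, Kcna1 and Blcap Y/C, and the PFC is above the AMY in mean at Blcap Y/C and Igf1.

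Among the ion channels, the pore site of Kcna1 was lower in the PFC, and Kcnma1 and Cacna1d showed no such separation. Kcna1 encodes a voltage-gated potassium channel whose recovery from inactivation is faster when the I/V site (chromosome 4, position 163012291, minus strand) is edited. Its levels were 2.3, 3.1, 1.8, 1.3 and 1.9% in the PFC and 6.7, 4.1, 4.5, 3.8 and 5.2% in the AMY. No PFC sample reached the lowest AMY sample, and the means were 2.08% ± 0.672 and 4.86% ± 1.15 (SD, n = 5 each; exact p = 0.00794, adjusted p = 0.116 over all sites and 0.0542 over nonsynonymous sites). Among the males of numbers 193 to 240 Kcna1 differed by -2.48 points, without overlap. Kcnma1, a calcium-activated potassium channel, stood at 2.52% ± 0.363 and 2.84% ± 0.251 (exact p = 0.0714, adjusted p = 0.274, n = 5 each). The 3 sites of the calcium channel Cacna1d had differences of 0.04 points (Y/C), -0.26 points (Q/R) and 1.28 points (I/M), within the SDs of 0.653 to 4.52 points.

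Htr2c, the serotonin 2C receptor, couples less well to its G protein when sites A to D are edited. Its site A had the largest difference in means of the 146 sites and also one of the widest spreads. The levels at site A (chromosome X, position 31041849, minus strand) were 34.7, 64.6, 54.5, 84 and 80.3% in the PFC and 80.4, 86.9, 87.8, 68.7 and 86.1% in the AMY. The means were 63.6% ± 20.1 and 82.0% ± 7.97 (SD, n = 5 each), a difference of -18.4 points that did not pass (exact p = 0.0556, adjusted p = 0.253). PFC 69 and PFC 71 lay within the AMY range, and without PFC 43 the difference was -11.1 points. PFC 43 was the only PFC sample in library numbers 1 to 48, and within the males of numbers 193 to 240 the difference was -10.0 points with overlap.

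PFC samples did not keep their order across the 4 Htr2c sites. Site B had means of 56.8% ± 21.8 and 72.0% ± 7.85, site C of 25.7% ± 9.59 and 32.0% ± 2.83, and site D of 42.1% ± 21.3 and 46.6% ± 8.82 (PFC before AMY, SD, n = 5 each; exact p = 0.310, 0.286 and 0.841, adjusted p = 0.587, 0.564 and 1.00). Without PFC 43 the differences at sites B and C went from -15.2 to -8.39 points and from -6.32 to -2.44 points, and in the males of numbers 193 to 240 they were -6.91 and -2.02 points with overlap. At site D the difference turned from -4.52 to 1.28 points without PFC 43. PFC 69 was the highest of all samples at site B (83.8%) and near the lowest at site D (21.9%). PFC 68 had the highest level at site D (69.0%) with 41.2% at site B, and PFC 43 was lowest at all 4 sites. At each of the 4 sites the SD across PFC samples exceeded that across AMY samples. In the Htr2c 3′ UTR, the first listed site stood at 7.70% ± 1.48 and 10.2% ± 0.896 (PFC before AMY; exact p = 0.0159, adjusted p = 0.178, n = 5 each). The second had 0.52% ± 0.327 and 0.34% ± 0.0548, a difference in the other direction (exact p = 0.238, adjusted p = 0.497, n = 5 each).

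**Figure D4:**
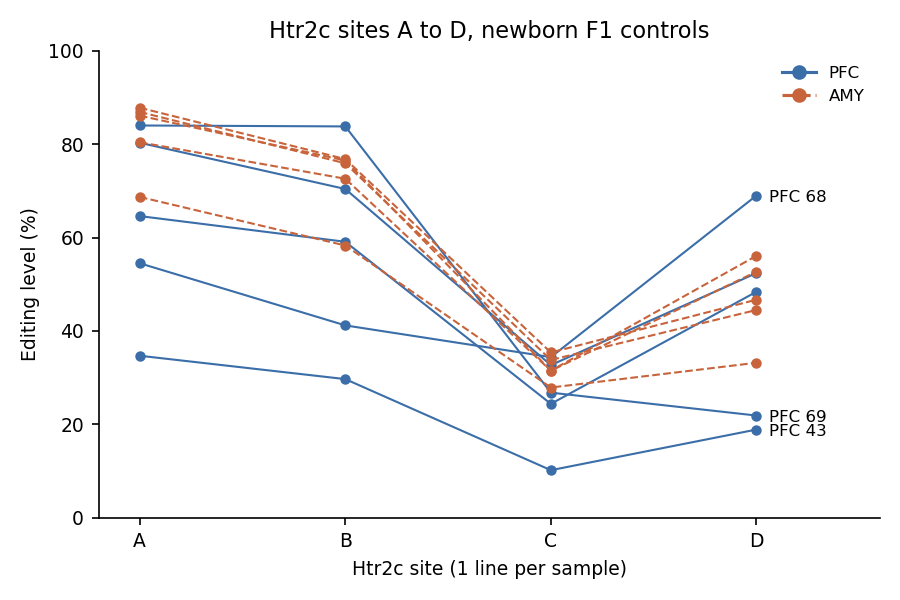
Editing level (%) at Htr2c sites A to D, one line per sample, solid for the PFC and dashed for the AMY. PFC lines spread from 34.7 to 84% at site A and from 18.9 to 69.0% at site D, against 68.7 to 87.8% and 33.2 to 56.1% in the AMY.

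At the receptor and channel sites the spread was mostly wider in the PFC. The SD was larger in the PFC at 16 of the 20 nonsynonymous receptor and channel sites, and at 69 of all 146 sites (larger in the AMY at 76). PFC 43 was the lowest PFC sample at 9 of these 20 sites and PFC 68 at 8. Their mean over the 20 sites was 28.6% and 33.4%, and the other 3 PFC samples had 37.6 to 41.7%. The AMY samples had 41.3 to 44.5%.

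Outside the receptors and channels, Mcrs1 and Blcap were the recoded transcripts with separate regions. Mcrs1 encodes microspherule protein, a nuclear protein of chromatin complexes. Its K/E site (chromosome 7, position 138004466, minus strand) had levels of 16.7, 18.8, 15.4, 15.8 and 18.6% in the PFC and of 29.7, 30.7, 30.7, 23.7 and 32.5% in the AMY. The means were 17.1% ± 1.57 and 29.5% ± 3.37 (SD, n = 5 each; exact p = 0.00794, adjusted p = 0.116 over all sites and 0.0542 over nonsynonymous sites), and among the 7 sites it is the one with the lowest adjusted p by limma on the logit, 0.00531. The males of numbers 193 to 240 differed by -11.8 points, without overlap. The value of AMY 40 rests on 64 reads, with a 95% Wilson interval from 19.9 to 41.8%.

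Blcap, a small conserved protein first described in bladder cancer, went the other way at its Y/C site (chromosome 3, position 148267368, minus strand). Levels there were 10.5, 9.2, 7.5, 10.2 and 12.8% in the PFC and 1.6, 5.8, 6.6, 4.3 and 5.1% in the AMY, so that the lowest PFC sample lay above the highest AMY sample. The means were 10.0% ± 1.94 and 4.68% ± 1.92 (SD, n = 5 each; exact p = 0.00794, adjusted p = 0.116 over all sites and 0.0542 over nonsynonymous sites). In the males of numbers 193 to 240 the difference was 4.59 points, without overlap. PFC 43 had 105 reads at this site, with a 95% Wilson interval from 5.95 to 17.8%. The Blcap Q/R site in the same amplicon had means of 3.82% ± 0.807 and 8.80% ± 13.7, with AMY 40 at 33.3%. Without AMY 40 the AMY mean was 2.67% and the direction turned, with the PFC higher by 1.15 points. The Blcap K/R site is listed with the same primer 2 and an overlapping primer 1, so it does not describe a separate stretch of transcript. Its means were 9.72% ± 18.7 and 1.42% ± 1.06, where PFC 43 stood at 43.1% on 255 reads and the other PFC samples at 0.9 to 1.7%. Without PFC 43 the difference at the K/R site was -0.05 points.

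In 3′ UTRs, 54 of 74 sites had a lower mean in the PFC (73.0%, against 74.7% of all sites) and 19 a higher one, with a median difference of -0.18 points. Regions did not overlap at 4 of the 74, against 10 of all 146 sites (6.85%), 9 of which were lower in the PFC. These 4 3′ UTR sites, chosen after their values were seen, were all lower in the PFC, and 3 of them are described here. Pum2, an RNA-binding repressor of translation, stood at 3.08% ± 0.396 and 5.68% ± 1.61, with PFC samples from 2.7 to 3.6% and AMY samples from 3.8 to 7.5%. Ankrd28, a subunit of a protein phosphatase complex, stood at 6.42% ± 0.622 and 8.66% ± 0.986 at position 7168464 of chromosome 16. Mmgt1, a membrane protein linked to magnesium transport, stood at 1.68% ± 0.432 and 3.40% ± 1.27 at position 141126031 of chromosome X (PFC before AMY, SD, n = 5 each; adjusted p = 0.116 over all sites and 0.208 over sites that are not nonsynonymous, exact Mann-Whitney). None of these 3 passed either adjustment.

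The Ankrd28 3′ UTR is the densest cluster measured, with 20 sites in 5 amplicons. At 18 of the 20 the mean was lower in the PFC (90.0%, against 74.7% of all sites), with a median difference of -0.51 points and a range from -2.24 to 0.48 points. Of these sites 3 (15%, against 17.1% of all sites) had an unadjusted exact p under 0.05, all lower in the PFC.

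Igf1, which encodes a growth factor, had the widest difference in the other direction. Its 3′ UTR site (chromosome 7, position 24605672, plus strand) had levels of 40.7, 13.6, 37.2, 23.4 and 13.0% in the PFC and of 13.4, 6.9, 10.5, 10.6 and 16.0% in the AMY. PFC 66 and PFC 71 lay within the AMY range, and the 3 other PFC samples above it. The means of 25.6% ± 12.9 and 11.5% ± 3.42 (SD, n = 5 each) did not pass (exact p = 0.0556, adjusted p = 0.253). In the males of numbers 193 to 240 the difference was 9.43 points with overlap. The 2 highest PFC samples, 43 and 68, were the libraries with the lowest mean editing. Dagla, the enzyme that makes an endocannabinoid, had a 3′ UTR site (position 212734070 of chromosome 1) at 8.94% ± 1.91 in the PFC and 16.2% ± 7.82 in the AMY, where AMY 56 stood at 28.7% (exact p = 0.0635, adjusted p = 0.265, n = 5 each). Without AMY 56 the difference went from -7.22 to -4.08 points.

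The other lists held few sites with separate regions. The transcript of Adarb1, one of the editing enzymes, is edited by its own product; its 4 measured sites, annotated as 5′ UTR, share 1 amplicon. Their differences ran from -4.38 to 0.40 points, with a median of -0.27, and 1 of the 4 had an unadjusted exact p under 0.05, against 17.1% of all sites. Among 15 sites of the RNA-binding and splicing genes (Nova1, Son, Celf4, Pum2, Ythdf3) 9 had a lower mean in the PFC and 5 a higher one. The 6 sites of the vesicle release and lipid signalling genes (Cadps, Dagla, Ppfia3) all had a lower mean in the PFC, with a median difference of -0.85 points. The 6 Plekhd1 sites, at median means of 0.34% in the PFC and 0.40% in the AMY, were lower at 2 and higher at 4. Of the 2 sites in the immune and microglial genes Mpeg1 and Entpd1, 1 had a lower and 1 a higher mean.

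The PFC minus AMY difference of these newborns was then set against 3 other cohorts with the same regions. They were newborn F2 controls (7 PFC and 7 AMY samples), newborn F1 offspring of dams that had been stressed before mating (PRS, 6 and 6) and adult control females at P60, labelled F0 (5 and 5). The cohorts share no samples. Averaged over the sites with 50 reads in all samples of both cohorts, editing had a PFC minus AMY difference of -1.66 points in F1 controls and -1.90 in F2 controls (85 sites; difference between them 0.24, permutation p = 0.825). The corresponding values were -1.66 and -1.90 points for F1 controls and F1 PRS (116 sites, difference 0.23, permutation p = 0.804), and -1.46 and -1.16 points for F1 controls and adults (113 sites, difference -0.29, permutation p = 0.859). No site passed FDR 0.1 in the test of the difference between cohorts (0 of 142, 0 of 146 and 0 of 140), where 2, 7 and 9 sites had an unadjusted permutation p under 0.05. A p-value over the threshold does not show that the differences were equal. Cohort labels were permuted without first removing shifts in level between cohorts, and such a shift widens the permutation spread. Over the 113 sites adults had means of 15.3% (PFC) and 16.5% (AMY), against 9.46% and 10.9% in F1 controls. The test against adults therefore had little power where levels differ with age, and its 0 of 140 decides little. In 1 of the F2 PFC libraries 52 of the 146 sites had under 50 reads. The methods of the paper leave out samples with a large share of sites missing, and this library exceeds their limit. That rule was not applied here, so the library was kept.

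Within the F2 controls, 25 of 142 sites passed FDR 0.1 over all sites (17.6% called), in F1 PRS 4 of 146 (2.74%) and in adults 0 of 140 (0%, with 18 at an unadjusted exact p under 0.05). More samples allow smaller exact p-values, so these counts cannot be compared between cohorts of unlike size. Regions did not overlap at 6 of 142 sites in F2 controls, 5 of 146 in F1 PRS and 9 of 140 in adults. In F1 controls it was 10 of 146, and this count too depends on the number of samples. Of the 10 sites without overlap in F1 controls, 9 could be tested in F2 controls, since Mcrs1 had 50 reads in only 2 of the F2 PFC samples. All 9 had the same direction and 7 passed FDR 0.1 there. In F1 PRS 9 of the 10 had the same direction and 1, Grik2 Q/R, passed. In adults 5 of 9 had the same direction and 0 passed. In F1 controls 9 of the 10 were lower in the PFC. Over all tested sites the mean was lower in the PFC at 71.8% in F2 controls, 59.6% in F1 PRS and 67.1% in adults.

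The R/G sites of Gria4 and Gria2 had narrower differences in the other newborn cohorts. Both are among the widest differences of F1 controls, so narrower values elsewhere are not by themselves evidence of a change between cohorts. At Gria4 R/G the means in PFC and AMY were 25.9% ± 4.04 and 33.0% ± 2.63 in F2 controls (SD, n = 7 each) and 22.5% ± 4.04 and 30.4% ± 4.65 in F1 PRS (SD, n = 6 each), against 20.8% and 37.8% in F1 controls. The difference of -16.9 points in F1 controls had the lowest p-value of the comparison with F2 controls, where it was -7.17 points (permutation p = 0.0134, adjusted p = 0.802). At Gria2 R/G the difference was -8.43 points in F2 controls, -8.80 in F1 PRS and -10.1 in adults, against -15.5 in F1 controls, and no test between cohorts passed. Adults had higher levels in both regions, 64.1% ± 6.57 (n = 5) and 65.3% ± 4.33 (SD, n = 4) at Gria4 R/G and 55.1% ± 0.952 and 65.2% ± 6.21 (SD, n = 5 each) at Gria2 R/G.

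At Grik2 Q/R and Igf1 the difference had one sign in newborns and the other in adults. Grik2 Q/R was at 90.4% ± 1.40 in the adult PFC and 86.0% ± 1.88 in the adult AMY (SD, n = 5 each), a difference of 4.40 points against -10.7 in newborn F1 controls (permutation p = 0.00682, adjusted p = 0.582). Igf1 had differences of 19.3 points in F2 controls, 13.4 in F1 PRS and -5.88 in adults, against 14.1 in F1 controls (adults against F1 controls, permutation p = 0.00832, adjusted p = 0.582). Neither passed the adjustment. Htr2c A and B had wider differences in the other newborn cohorts than in F1 controls, -30.1 and -30.4 points in F2 controls and -46.7 and -43.9 points in F1 PRS, and the tests against F1 controls gave permutation p-values of 0.517 and 0.391 (F2) and 0.112 and 0.0880 (PRS). Kcna1 had a difference of -2.96 points in F2 controls, -2.52 in F1 PRS and -1.86 in adults, where PFC samples averaged 16.9% ± 2.85 and AMY samples 18.8% ± 4.25 (SD, n = 5 each).

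**Figure D5:**
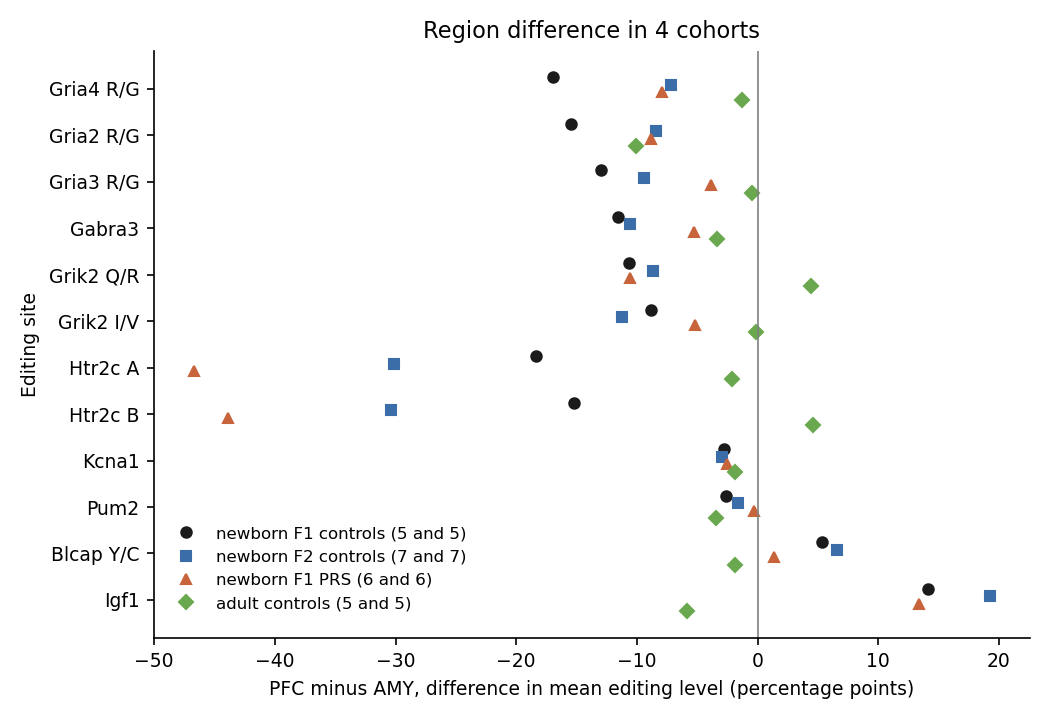
PFC minus AMY difference in mean editing level (percentage points, horizontal axis) at 12 sites in newborn F1 controls, newborn F2 controls, newborn F1 PRS offspring and adult controls; the vertical line marks no difference, and at some sites a cohort has fewer samples with 50 reads. At Gria4 R/G the F1 controls stand at -16.9 points and the other newborn cohorts at -7.17 and -7.90, and at Igf1 the 3 newborn cohorts lie to the right of the line and the adults to the left.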

How the data were processed

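The authors combined the 76 bp paired-end reads, mapped them to the rat genome build rn4 and exonic sequence around splice junctions with BWA samse, allowing 9 mismatches per read, and counted reads at listed sites; the submitters' processing notes also name SAMtools. The deposited files give counts (reads at each site, and reads with G there) and their quotient, the editing level, as a fraction rounded to 3 decimals, used here as a percent. Mismatches near sites that lie close together can affect mapping of edited reads.

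Of 179 listed positions, the 146 sites of the study were tested, with a minimum of 50 reads per sample and of 3 samples per region. With 50 reads at a level of 50%, the 95% Wilson interval is 36.6 to 63.4%. No molecular identifiers were used, so intervals cover counting error only. Site names and classes come from the study's site list, where 1 site was matched by position alone.

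Sites were tested by the Mann-Whitney U statistic (two-sided, mid-ranks for ties), with exact p-values and Benjamini-Hochberg adjustment over all tested sites (FDR 0.1). Mean editing was tested by exact permutation of the difference in means, and differences between cohorts by permuting cohort labels within region (100000 resamples, fixed seed). Levels were permuted as they stood, so a shift in level between cohorts adds to the permutation spread. The site test was run on simulated data with known differences, at levels higher than those of most sites here. The cohort test was run only on identical cohorts, which differ by nothing by construction. These runs check the calculation and do not measure power at the sites of the study. Alternatives covered the adjustment, test, model, coverage minimum, sites, sex, library number and each sample left out.

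Sites named are all coding sites of 10 receptor and channel genes, sites passing the FDR, and sites with a difference of 5 points or more; others were chosen after their values were seen. The members, lists and rules were chosen with earlier results of these data known. Isoforms and expression were not analysed here. Some sites are not reported here. The tools were limma 3.58.1 (R 4.3.3), scipy 1.17.1, pandas 2.3.3 and numpy 2.4.6 under Python 3.11.15.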

Additional observations from a re-analysis of the deposited data

Results flagged for a closer look

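Among the named sites and mean editing, 71 groups of 5 samples were examined for a sample far from the other 4, and 9 (12.7%) held one. For independent groups the rule flags about 1 in 20. These groups share samples and amplicons, and some sites were named for a wide difference that 1 sample can make. The 9 can therefore not be set against that rate. AMY 40 was that sample in 6 of the 9. It was low at Grik1 (22.5%, the other AMY samples 41.7 to 49.2%), Gria3 R/G (61.4%, others 73.7 to 77.6%), Gria4 R/G (28.3%, others 38.3 to 42.3%), Grik2 Q/R (83.7%, others 85.5 to 85.8%) and Grik2 G (3.2%, others 4.3 to 4.7%). It was high at Blcap K/R, position 148267329 (3.3%, others 0.7 to 1.1%). Blcap Q/R, with a difference in means of -4.98 points, was not among the sites examined. AMY 40 stood far above the other AMY samples there as well (33.3%, others 1.9 to 3.3%), so the 6 is not a full count. AMY 40 is the only library of the 10 in numbers 145 to 192.

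AMY 59 stood apart at Htr2c B (58.3%, others 72.6 to 76.8%) and, by a small step, at Gria3 K (0.5%, others 0.3%). PFC 43 stood apart at Blcap K/R (43.1% of 255 reads, 95% Wilson interval 37.2 to 49.3%, others 0.9 to 1.7%).

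Of 33 listed positions outside the study's sites, 29 had no library with 50 reads. Pdcd7 had edited reads at position 69590535 in PFC 66 (0.478%, 88 of 18419 reads) and at position 69590610 in PFC 68 (0.935%, 11 of 1176 reads), each the only library of the 10 with 50 reads there, so the regions could not be compared. The remaining 2, both in Htr2c, had 6 edited reads of 90992 and 1 of 90390 over the 10 libraries.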

How the results depend on the processing

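No paired analysis was possible because no replicate number occurs in both regions. The difference in mean editing kept its direction and an exact permutation p under 0.05 under all 23 alternatives, between -1.61 and -1.17 points with each sample left out. The count of sites that passed was 0 in the main test and with each sample left out. It was 7 with adjustment by class and 13 with limma on the logit. Over the 88 sites with a mean of at least 1% in either region it was 9. That filter used the compared means, as 87 sites reached 1% in the AMY and 75 in the PFC. Some sites entered only through the AMY, where they are high, so these 9 are no separate support. Under the other alternatives, which include males only, permutation within sex or library set and FDR 0.05, the count was 0. The lowest adjusted p was 0.253 with 4 PFC and 3 AMY males, and 0.430 after the 3 libraries with the fewest reads were left out, an alternative chosen after seeing the data. Few splits of samples exist there, and the lowest unadjusted exact Mann-Whitney p was 0.0286 in both. Permuted within library sets, the lowest rank permutation p was 0.0143. Such tests could hardly call a site, so their counts of 0 do not show that sites were alike. The 0 at FDR 0.05 follows from the 0 at FDR 0.1. The 35 named sites gave 770 values, of which 18, at 11 sites, passed with adjustment by class or with limma and 13, at 7 sites, changed sign; none of those 7 had passed. With each sample left out, the range was -11.2 to 1.29 points at Htr2c D, -0.04 to 0.02 at Gria3 K, -0.045 to 10.5 at Blcap K/R, and -1.18 to 0.87, -0.66 to -0.03 and -0.61 to 2.54 at Cacna1d positions 5405832, 5405838 and 5405840. Males only gave 3.73 at Htr2c D, 0.0333 at Cacna1d 5405838 and 0.05 at Gria3 3477161, and the logit gave -0.0059 at Cacna1d 5405832. Between cohorts, 0 sites passed under every alternative, each with the permutation spread widened by shifts in level between cohorts. The mean editing differences ranged, with each sample left out, from -0.0024 to 0.57 (F2), -0.0054 to 0.60 (PRS) and -0.50 to -0.005 (adults). The logit gave 0.0507 for adults. The cause of these shifts was not tested. Depth limits sites with few reads in a library, such as Mcrs1, Pum2 and Blcap.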
